A study of Homo sapiens with 12 samples.

Results

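MUC1 was silenced in SUM149, an established cell line of inflammatory, triple-negative breast cancer, and gene expression was measured by RNA sequencing. The members are the 6 SUM149 libraries of the 12 in the series, chosen by cell line and hairpin: 3 carried a control short hairpin RNA (CshRNA) and 3 a hairpin against MUC1 (MUC1shRNA). Cells of both arms were transfected for stable expression of their hairpin, so the controls carried one too. SUM149 was grown in medium with insulin and hydrocortisone. The other 6 libraries are of BT-549, a triple-negative line with mesenchymal features, with the same 2 arms, and they enter only where the responses of both lines are compared. The labels call the 3 libraries of an arm different sets without saying whether the hairpin was introduced separately in each, so a p-value here reflects only how much these sets varied. Cells without a hairpin and a second hairpin against MUC1 were not analysed here. An effect of the hairpin apart from MUC1 therefore cannot be told apart from the loss of MUC1.

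MUC1 encodes a transmembrane mucin that is cleaved into an outer subunit and the transmembrane subunit MUC1-C, whose cytoplasmic tail takes part in signalling and binds transcription factors. The series is about MUC1-C and NuRD, a chromatin complex that joins a remodelling ATPase with histone deacetylases and represses or tunes enhancers and promoters during differentiation. ATF4, to which many of the genes below belong as targets, is a transcription factor made when kinases that sense amino acid shortage, unfolded proteins or other stress phosphorylate the initiation factor eIF2. It drives amino acid transporters, biosynthetic enzymes, tRNA synthetases and secreted stress hormones.

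Library sizes ran from 19392422 to 24140623 counts with CshRNA and from 7931614 to 9623924 with MUC1shRNA, so the control arm as a whole was 2.44 times as deep. Levels are given as CPM, which are counts scaled to a common library total after TMM scaling. Mitochondrial transcripts took 5.38% to 6.46% of counts with CshRNA and 5.08% to 5.95% with MUC1shRNA. Cytosolic ribosomal protein genes took 5.06% to 5.51% and 3.73% to 4.09%. Epithelial identity was seen in all 6 libraries, with EPCAM at 433, 462 and 409 CPM with CshRNA and 496, 468 and 491 CPM with MUC1shRNA, and the keratins KRT5, KRT8 and KRT18 and the cadherin CDH1 were present in each as well. The basal keratin KRT14 was low, between 0.872 and 2.56 CPM. The leukocyte marker PTPRC (0 to 7 counts a library), the endothelial cadherin CDH5 (0 or 1) and the fibroblast collagen COL1A2 (0 or 1) were at or near 0. Another endothelial marker, PECAM1, was not, at 31.9, 32.4 and 27.9 CPM with CshRNA and 11.4, 10.6 and 9.74 CPM with MUC1shRNA, a log2 fold change of -1.54 (edgeR adjusted p = 8.5e-08, SE 0.11). The arms lay apart along the first principal component, which held 73.5% of the variance.

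CshRNA 3 stood apart from the other control libraries. It differed from CshRNA 1 and 2 by a chi-square of 13.5 and 10.6 per degree of freedom, against 3.80 between those 2 libraries, and lay alone on the second principal component (11.6% of the variance). Prostate genes were among the genes that set it apart. FOLH1, the prostate-specific membrane antigen, was at 0, 0.257 and 81.6 CPM with CshRNA and 5.91, 2.32 and 6.92 CPM with MUC1shRNA. It was near 0 in CshRNA 1 and 2, highest in CshRNA 3, and present at lower levels in all 3 MUC1shRNA libraries. HOXB13, a homeobox factor of prostate epithelium, followed the same order, at 0, 0 and 39.2 CPM with CshRNA and 3.85, 0.853 and 1.68 CPM with MUC1shRNA. Of a list of 14 prostate marker genes, drawn up after these values were seen, 12 were higher in CshRNA 3 than in both other controls. The kallikreins KLK2, KLK3 and KLK4 were at 0 to 0.0513 CPM in CshRNA 1 and 2, at 11.1, 17.6 and 15.4 CPM in CshRNA 3, and between 0.122 and 2.83 CPM with MUC1shRNA. PCA3 was at or near 0 in every library, with at most 0.128 CPM, and SLC45A3 was not raised in CshRNA 3. The summed level of the list was 55.7, 59.8 and 306 CPM in CshRNA 1, 2 and 3, and 60.6, 52.3 and 64.96 CPM in MUC1shRNA 1, 2 and 3. Much of the sum outside CshRNA 3 came from STEAP2 and SLC45A3, which were lower with MUC1shRNA than with CshRNA. STEAP2 was at 32.3, 34.2 and 74.8 CPM with CshRNA and 22.2, 18.4 and 17.5 CPM with MUC1shRNA. SLC45A3 was at 15.3, 16.2 and 15.8 CPM and at 8.35, 12.3 and 9.53 CPM. Similar sums therefore do not mean similar levels of the other members.

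**Figure D1:**
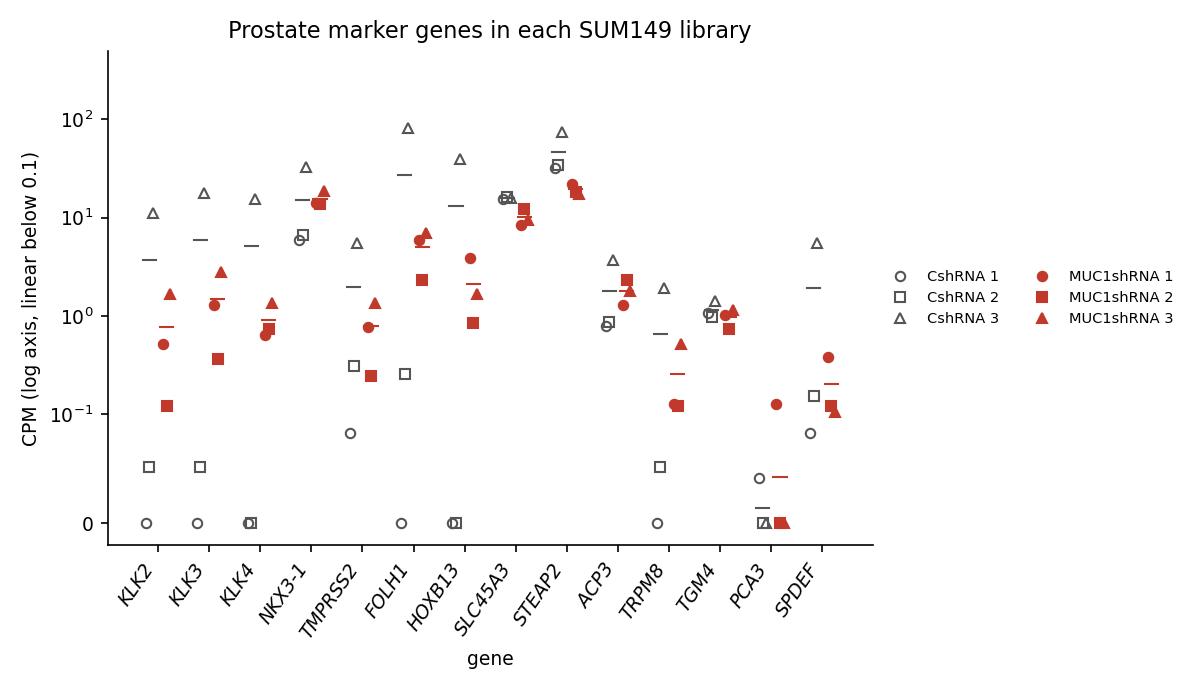
CPM (vertical, logarithmic axis that is linear below 0.1) of 14 prostate marker genes (horizontal) in each SUM149 library; open grey symbols are CshRNA, filled red symbols MUC1shRNA, and short lines are means of 3 libraries. The open triangle of CshRNA 3 lies highest for 12 of the 14 genes, with FOLH1 at 81.6 CPM, while open circles and squares of CshRNA 1 and 2 lie at or near 0 for most.

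Across all genes, 61 were at 5 CPM or more in CshRNA 3 and at least 4-fold above CshRNA 1 and 2, and 0 genes were at least 4-fold lower in CshRNA 3 among those at 10 CPM or more in the other controls. Their summed level was 101 and 99.8 CPM in CshRNA 1 and 2, 1415 CPM in CshRNA 3, and 175 to 242 CPM with MUC1shRNA. Only 4 of these 61 genes were called changed with all 6 libraries, and 33 of the 44 that could be tested without CshRNA 3 were called then. HOXB13, for example, had a log2 fold change of -2.63 that was not past the test with all libraries (edgeR adjusted p = 0.14) and of 7.85 without CshRNA 3. The part of this signal in other results was not tested. Results were recomputed without CshRNA 3, and also with CshRNA 1 and 2 against MUC1shRNA 2 alone, the libraries with the lowest FOLH1 and HOXB13 levels of their arms. That reduced comparison was chosen after these values were seen. In the former fit, 290 of the 290 genes named here that were called and could be tested again kept their direction and their call. In the latter, 290 of 290 kept their direction and 285 their call, and 6 moved by more than 1.5 times. Among those 6, COL9A3 went from -3.91 to -3.30 on the log2 scale, IL15 from -3.39 to -4.18, TPRG1 from -3.86 to -4.70 and ULBP1 from -4.85 to -4.13. GDF15 and CRYAB are given with their lists.

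MUC1 (ENSG00000185499.16, GRCh38 chromosome 1, 155185824 to 155192916, minus strand) was checked first. Its level was 17.7, 18.01 and 13.02 CPM with CshRNA and 1.16, 0.366 and 0.524 CPM with MUC1shRNA. The highest MUC1shRNA library lay far below the lowest control, and MUC1 fell by a log2 fold change of -4.59 (edgeR adjusted p = 1.8e-08, SE 0.27).

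The main question of the experiment was what else changed when MUC1 was silenced. Of 14178 genes with enough counts, 8017 (56.5%) were past edgeR's quasi-likelihood test at a Benjamini-Hochberg adjusted p below 0.05, with 3920 (27.6%) higher and 4097 (28.9%) lower in MUC1shRNA. The arms did not overlap for 8862 genes (62.5%). Genes named for the largest rises or falls had to have arms without overlap, and list members were named by their smallest adjusted p. Separation of the arms in such genes below is therefore a description and no added support. A test against a change of 1.5-fold left 2053 genes (14.5%), of which 826 (5.83%) were higher and 1227 (8.65%) lower. With 56.5% of all genes called, the count of members in a list is read below against these shares. All genes also rose and fell in similar number, so a list near these shares gives no result about its members. Upper-quartile scaling moved the split of calls to 3411 higher and 4644 lower. Without CshRNA 3 it was 4064 and 4242. Genes named below follow a rule given with the processing, except that ABCG2, ALDH1L2, BGN, BTC, CCNE2, CDKN1A, CEBPG, CHD5, FARSA, FARSB, FGF21, GALNT12, GCLC, IFI44, IFIT2, MARCHF4, MICB, MMP3, PTGS2, SLC1A5, SLC7A5, TGFBR1 and ZEB1 were chosen after their values were seen. The median log2 fold change over all tested genes was -0.03.

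**Figure D2:**
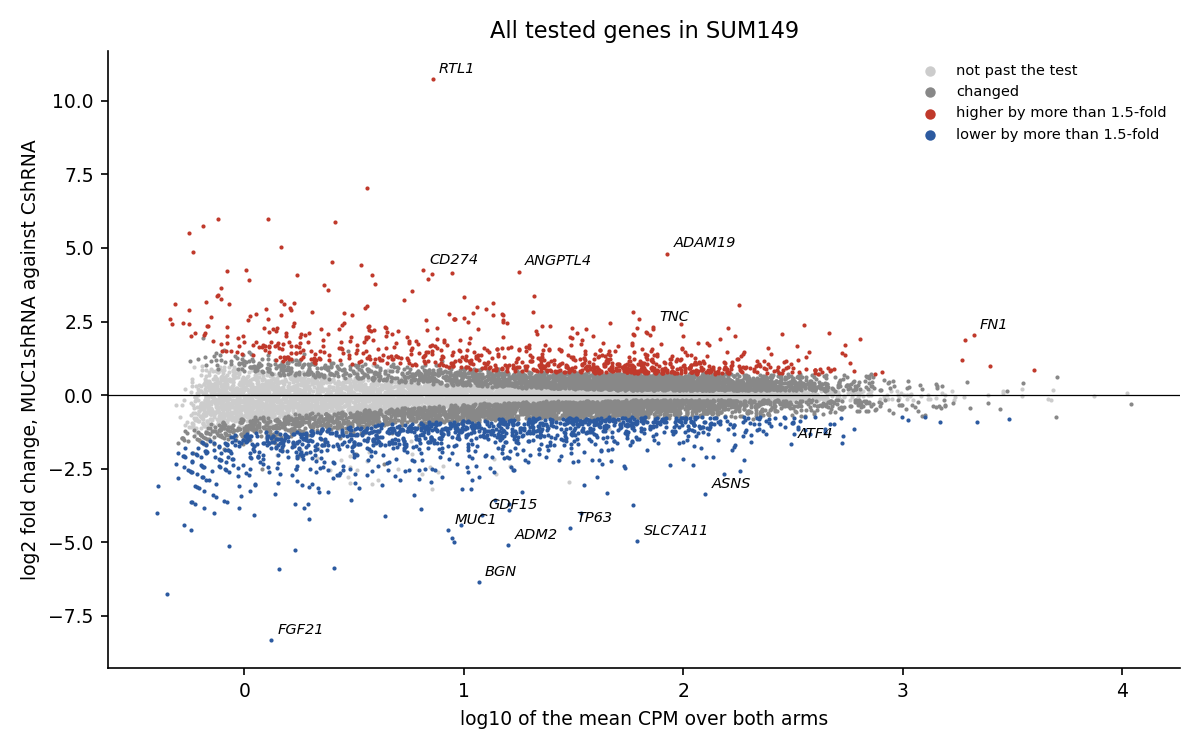
Log2 fold change of MUC1shRNA against CshRNA (vertical) against the log10 of the mean CPM over both arms (horizontal) for the 14178 tested genes of SUM149; red and blue points changed by more than 1.5-fold (826 higher, 1227 lower), dark grey points changed without passing that test, and light grey points did not pass. RTL1 and FGF21 have 0 counts in one arm, so their height on the plot depends on the fit and is no measured fold.

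Most other mucins were too low to test, while enzymes that build O-linked glycans on mucins were measured. In the list of mucins and O-glycosylation genes 12 rose and 2 fell of 17 tested, out of 34 listed, MUC1 included. That is 70.6% higher, against 27.6% of all genes. GALNT3, which starts O-glycans by adding N-acetylgalactosamine, was at 42.3, 41.1 and 41.5 CPM with CshRNA and 98.1, 78.9 and 87.2 CPM with MUC1shRNA. GCNT1, which branches the core of these chains, was at 41.3, 43.3 and 39.9 CPM with CshRNA and 95.8, 80.3 and 87.4 CPM with MUC1shRNA. Both were higher in all 3 MUC1shRNA libraries than in any control, at log2 fold changes of 1.08 (SE 0.08) and 1.08 (SE 0.08). GALNT12, of the family of GALNT3, rose with a log2 fold change of 1.54 (edgeR adjusted p = 1.5e-04, SE 0.25), and GALNT10 was the member other than MUC1 that fell, at a log2 fold change of -0.34 (edgeR adjusted p = 0.0039, SE 0.08).

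Most genes of the ATF4 pathway fell in SUM149. ATF4 itself (ENSG00000128272.14, GRCh38 chromosome 22, 39519695 to 39522685, plus strand) was at 474, 485 and 457 CPM with CshRNA and 143, 159 and 147 CPM with MUC1shRNA, and fell with a log2 fold change of -1.66 (edgeR adjusted p = 5.5e-10, SE 0.07). The 3 silenced libraries stood at about the same level, all below the controls. The list of ATF4 pathway regulators holds the eIF2 kinases, ATF4 and its partners and feedback genes. Of 17 tested, 2 rose (11.8%) and 12 fell (70.6%), against 27.6% and 28.9% of all genes, with a median of -0.86. NUPR1, a small stress-induced chromatin protein, was at 62.1, 66.1 and 65.3 CPM with CshRNA and 4.75, 3.05 and 4.296 CPM with MUC1shRNA. SESN2, which restrains mTORC1 when amino acids are scarce, was at 67.3, 64.5 and 57.8 CPM with CshRNA and 6.29, 8.899 and 7.33 CPM with MUC1shRNA. DDIT3, which encodes the stress factor CHOP, was at 25.6, 31.1 and 29.8 CPM with CshRNA and 4.24, 4.63 and 5.66 CPM with MUC1shRNA. None of these 3 genes had an overlap between the arms, and they fell with log2 fold changes of -3.996 (SE 0.12), -3.07 (SE 0.12) and -2.56 (SE 0.14), with an edgeR adjusted p of at most 6.5e-09. DDIT3 shares 39.6% of its exon bases with MARS1 on the opposite strand, and the strand setting of the counting was not given in sources used here, so reads of both genes may be mixed. TRIB3, a pseudokinase that feeds back on ATF4, fell with a log2 fold change of -2.18 (edgeR adjusted p = 2.3e-10, SE 0.08). A pair of the kinases that start the pathway went the other way. EIF2AK4, which encodes the amino acid sensor GCN2, rose from 214 ± 7.57 to 341 ± 4.997 CPM (SD, n = 3 each), at a log2 fold change of 0.68 (edgeR adjusted p = 7.7e-07, SE 0.06), and EIF2AK2, the sensor of double-stranded RNA, rose with a log2 fold change of 0.42 (edgeR adjusted p = 4.4e-04, SE 0.08).

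**Figure D3:**
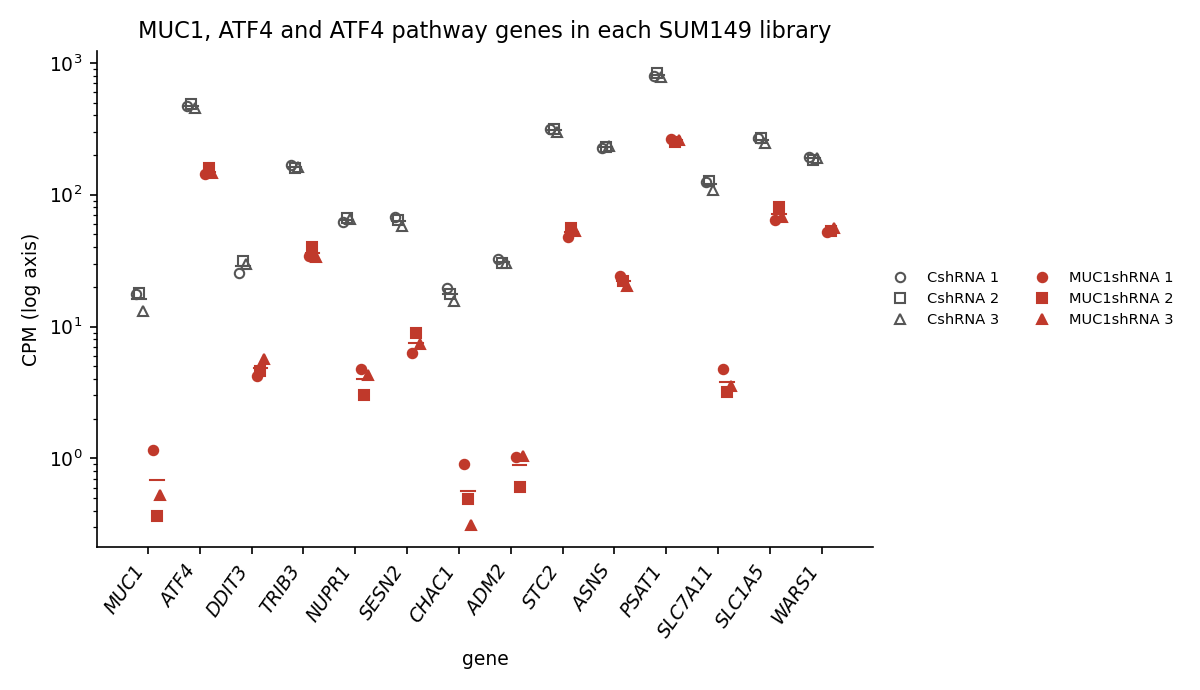
CPM (vertical, logarithmic axis) of MUC1, ATF4 and 12 genes of the ATF4 lists (horizontal) in each SUM149 library; open grey symbols are CshRNA, filled red symbols MUC1shRNA, and short lines are means of 3 libraries. The arms do not overlap for any of the 14 genes, and ATF4 lies at 457 to 485 CPM with CshRNA and 143 to 159 CPM with MUC1shRNA.

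Among the targets, most enzymes that make amino acids and one-carbon units fell. Of this list 1 rose (5.88%) and 14 fell (82.4%) of 17 tested, against 27.6% and 28.9% of all genes, with a median of -1.03. ASNS, asparagine synthetase (GRCh38 chromosome 7, 97852118 to 97872542, minus strand), was at 225, 229 and 235 CPM with CshRNA and 24.02, 22.3 and 20.4 CPM with MUC1shRNA. PSAT1, of serine synthesis, was at 792, 833 and 787 CPM with CshRNA and 264, 252 and 261 CPM with MUC1shRNA. PHGDH, the first enzyme of the serine pathway, was at 248, 253 and 288 CPM with CshRNA and 78.7, 78.8 and 75.5 CPM with MUC1shRNA. In each of the 3 genes the silenced libraries lay under all controls, and the log2 fold changes were -3.37 (SE 0.08), -1.63 (SE 0.06) and -1.76 (SE 0.07). ASNS shares 44.6% of its exon bases with an unnamed gene on the same strand. ALDH1L2, a mitochondrial folate enzyme, fell with a log2 fold change of -2.34 (edgeR adjusted p = 1.7e-09, SE 0.10). The 1 member that rose was MTHFD1, the cytosolic folate enzyme, at a log2 fold change of 0.39 (edgeR adjusted p = 2.4e-04, SE 0.07).

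Of the amino acid transporters 1 rose (6.67%) and 11 fell (73.3%) of 15 tested, against 27.6% and 28.9% of all genes. Their median was -1.07. SLC7A11, which imports cystine for glutathione (GRCh38 chromosome 4, 138164097 to 138242349, minus strand), was at 124, 127 and 109 CPM with CshRNA and 4.75, 3.17 and 3.56 CPM with MUC1shRNA. SLC43A1, a transporter of large neutral amino acids, was at 18.2, 18.4 and 19.04 CPM with CshRNA and 0.899, 0.975 and 0.733 CPM with MUC1shRNA. SLC6A9, a glycine transporter, was at 68.00, 61.8 and 59.2 CPM with CshRNA and 12.5, 14.3 and 14.5 CPM with MUC1shRNA. No silenced library of these 3 genes reached a control. Their log2 fold changes were -4.98 (SE 0.13), -4.41 (SE 0.17) and -2.195 (SE 0.10). SLC7A5, the main leucine carrier, fell from 1249 ± 72.4 to 739 ± 72.5 CPM (SD, n = 3 each), or on the log2 scale -0.76 (edgeR adjusted p = 2.3e-06, SE 0.08). The 1 member that rose, SLC16A10, went from 2.64 ± 0.233 to 3.97 ± 0.441 CPM (SD, n = 3 each), with a log2 fold change of 0.59 (edgeR adjusted p = 0.026, SE 0.21). It lost its call in 7 of 15 alternatives, among them the fits without CshRNA 1 (0.52), without MUC1shRNA 2 (0.58) and without MUC1shRNA 3 (0.54).

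Cytosolic aminoacyl-tRNA synthetases charge tRNAs with their amino acids. Of 20 tested, 5 rose (25%) and 13 fell (65%), against 27.6% and 28.9% of all genes, with a median of -0.44. WARS1, the tryptophan enzyme, was at 191, 185 and 189 CPM with CshRNA and 52.3, 52.8 and 56.4 CPM with MUC1shRNA. CARS1, for cysteine, was at 71.9, 72.8 and 72.1 CPM with CshRNA and 24.1, 26.8 and 23.3 CPM with MUC1shRNA, and YARS1, for tyrosine, was at 458, 451 and 453 CPM with CshRNA and 176, 196 and 177 CPM with MUC1shRNA. All silenced libraries lay below all controls for them, with log2 fold changes of -1.81 (SE 0.07), -1.55 (SE 0.08) and -1.31 (SE 0.06). HARS1, for histidine, went the other way, at 61.7, 60.9 and 65.01 CPM with CshRNA and 90.9, 97.2 and 96.3 CPM with MUC1shRNA, a log2 fold change of 0.601 (edgeR adjusted p = 5.3e-06, SE 0.07). KARS1, for lysine, and RARS1, for arginine, also rose, at log2 fold changes of 0.48 (SE 0.06) and 0.51 (SE 0.07). The arms did not overlap for these 3 genes. FARSA and FARSB, the subunits of the phenylalanine enzyme, were the other members that rose.

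Secreted stress hormones and genes of cystine and glutathione stress fell further. Of this list 2 rose (18.2%) and 8 fell (72.7%) of 11 tested, against 27.6% and 28.9% of all genes, with a median of -1.41. ADM2, a peptide hormone, was at 32.3, 30.4 and 30.2 CPM with CshRNA and 1.03, 0.6095 and 1.05 CPM with MUC1shRNA. CHAC1, which degrades glutathione, was at 19.5, 17.7 and 15.5 CPM with CshRNA and 0.899, 0.488 and 0.314 CPM with MUC1shRNA. GDF15, a hormone that acts on appetite, was at 20.97, 22.2 and 25.8 CPM with CshRNA and 0.899, 0.366 and 2.62 CPM with MUC1shRNA. The controls of these 3 genes were 15.5 CPM or more and the silenced libraries 2.62 CPM or less. The log2 fold changes were -5.09 (SE 0.16), -4.98 (SE 0.24) and -4.07 (SE 0.30), and GDF15 had -5.17 without MUC1shRNA 3 and -5.84 with CshRNA 1 and 2 against MUC1shRNA 2 alone. STC2, a secreted glycoprotein, fell with a log2 fold change of -2.57 (edgeR adjusted p = 5.7e-11, SE 0.07), from 311 ± 9.33 to 52.2 ± 3.92 CPM (SD, n = 3 each), whereas its paralog STC1 rose with a log2 fold change of 2.29 (edgeR adjusted p = 1.1e-09, SE 0.10), from 20.9 ± 3.15 to 103 ± 3.11 CPM (SD, n = 3 each). FGF21, a fasting and stress hormone of low level in these cells, had 171 counts over the 3 controls and 0 over the 3 silenced libraries, so its level was at least 22.7-fold lower, taking 3 counts over the arm as the floor.

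The promoters of these genes are shown because the data bear on genes with a known response element. A C/EBP-ATF response element joins a site of a C/EBP factor with one of an ATF factor. The motif TGATGNAA was searched on both strands in the 250 bases before each transcription start of the RefSeq table (GRCh38.p14), which holds 35116 windows. It occurred in 1104 of them (3.14%), and in 235 of the 9947 tested protein-coding genes that had a window (2.36%). Of the 5 ATF4 lists, 61 of the 78 tested protein-coding members had a window and 12 held the motif (19.7%). Among the members lower by more than 1.5-fold it was found in 7 of 30 (23.3%), close to the share of all members. The lists were drawn up around ATF4, so a share above that of all tested genes can follow from the choice of members. For all genes lower by more than 1.5-fold the share was 40 of 780 (5.13%), and for those higher by more than 1.5-fold 15 of 617 (2.43%). The windows of CHAC1, ASNS, FGF21 and CEBPG follow, 5′ to 3′ along the gene, with the motif in capitals. In CHAC1 and FGF21 the motif reads on the reverse strand.
CHAC1 (chr15:40953221-40953470, plus strand): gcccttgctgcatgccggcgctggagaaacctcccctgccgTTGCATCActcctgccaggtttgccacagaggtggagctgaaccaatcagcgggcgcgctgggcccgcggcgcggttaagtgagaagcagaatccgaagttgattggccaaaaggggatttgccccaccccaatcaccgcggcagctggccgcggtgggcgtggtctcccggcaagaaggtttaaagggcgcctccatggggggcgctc
ASNS (chr7:97872409-97872658, minus strand): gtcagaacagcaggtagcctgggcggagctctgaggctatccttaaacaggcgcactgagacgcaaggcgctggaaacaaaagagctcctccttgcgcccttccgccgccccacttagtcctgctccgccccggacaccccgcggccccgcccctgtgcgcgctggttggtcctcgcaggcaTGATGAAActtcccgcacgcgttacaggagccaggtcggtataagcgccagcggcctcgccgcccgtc
FGF21 (chr19:48755274-48755523, plus strand): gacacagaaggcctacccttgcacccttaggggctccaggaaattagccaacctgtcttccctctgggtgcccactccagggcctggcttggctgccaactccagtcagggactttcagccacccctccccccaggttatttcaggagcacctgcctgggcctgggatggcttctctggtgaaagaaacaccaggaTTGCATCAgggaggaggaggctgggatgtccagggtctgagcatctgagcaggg
CEBPG (chr19:33373863-33374112, plus strand): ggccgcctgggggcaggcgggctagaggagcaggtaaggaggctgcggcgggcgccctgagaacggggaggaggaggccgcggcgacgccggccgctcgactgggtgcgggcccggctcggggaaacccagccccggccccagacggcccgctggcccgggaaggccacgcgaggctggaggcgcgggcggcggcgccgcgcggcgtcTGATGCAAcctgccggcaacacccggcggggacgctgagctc
The first base of the match lay 209, 68, 54 and 42 bases before the start in these 4 windows. CEBPG, a C/EBP partner of ATF4, was at 142, 152 and 138 CPM with CshRNA and 65.5, 51.4 and 63.5 CPM with MUC1shRNA, and fell with a log2 fold change of -1.26 (edgeR adjusted p = 7.3e-08, SE 0.09). SLC1A5, AARS1 and GARS1 were the other fallen members with the motif. SLC1A5, a glutamine transporter, was at 270.3, 268 and 246 CPM with CshRNA and 64.4, 81.2 and 67.4 CPM with MUC1shRNA, and fell with a log2 fold change of -1.88 (edgeR adjusted p = 2.2e-09, SE 0.09). A match is a description of the letters, and binding of a factor was not measured.

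Genes of the other arms of the unfolded protein response and of heat shock moved in both directions or rose. Of the endoplasmic reticulum list 11 rose (44%) and 6 fell (24%) of 25 tested, against 27.6% and 28.9% of all genes. XBP1, the factor activated by splicing through IRE1, was at 149.7, 150.3 and 156 CPM with CshRNA and 59.1, 54.7 and 60.5 CPM with MUC1shRNA, and ERN1, which encodes IRE1, was at 32.2, 30.6 and 30.5 CPM with CshRNA and 12.8, 9.75 and 13.1 CPM with MUC1shRNA. Both fell, at log2 fold changes of -1.38 (SE 0.07) and -1.38 (SE 0.11), with all silenced libraries below all controls. CALR and SDF2L1, which act in protein folding in that compartment, were among those that rose, CALR at a log2 fold change of 0.61 (edgeR adjusted p = 7.0e-06, SE 0.07) and SDF2L1 from 5.01 ± 1.47 to 14.1 ± 0.687 CPM (SD, n = 3 each).

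Of the heat shock chaperones 16 rose and 1 fell of 21 tested, or 76.2% higher against 27.6% of all genes, with a median of 0.61. HSPA8, the constitutive member of the HSP70 family, was at 733, 717 and 1008 CPM with CshRNA and 3093, 2885 and 3063 CPM with MUC1shRNA. HSP90AA1 was at 1621, 1627 and 1788 CPM with CshRNA and 3459, 3131 and 3294 CPM with MUC1shRNA, and DNAJA1, a co-chaperone of HSP70, was at 109, 109.8 and 145 CPM with CshRNA and 361, 364 and 370.1 CPM with MUC1shRNA. The arms did not overlap, and the log2 fold changes were 1.88 (SE 0.11), 0.97 (SE 0.06) and 1.59 (SE 0.10). In HSPA8 and DNAJA1 the control CshRNA 3 lay above the other controls. Summed over the list, levels were 8483 to 8830.4 CPM with CshRNA and 13785 to 14704 CPM with MUC1shRNA. Without CshRNA 3, 15 rose and 0 fell. CRYAB, a small heat shock protein and the 1 member that fell, had a log2 fold change of -1.87 (edgeR adjusted p = 0.011, SE 0.55). It lost its call without MUC1shRNA 3 (-1.38, edgeR adjusted p = 0.068) and with CshRNA 1 and 2 against MUC1shRNA 2 (-0.64, edgeR adjusted p = 0.46), and was too low to test without CshRNA 3. Of the antioxidant genes of NRF2 8 rose (33.3%) and 9 fell (37.5%) of 24 tested, against 27.6% and 28.9% of all genes. NFE2L2, which encodes NRF2, fell with a log2 fold change of -1.09 (edgeR adjusted p = 1.9e-08, SE 0.07) and GCLC, the rate-limiting enzyme of glutathione synthesis, fell with a log2 fold change of -0.89 (edgeR adjusted p = 1.5e-06, SE 0.08), while PRDX1, a peroxiredoxin, rose with a log2 fold change of 0.54 (edgeR adjusted p = 2.1e-05, SE 0.07).

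Cytosolic ribosomal protein genes mostly fell, by a small amount each. In this list 1 rose and 54 fell of 75 tested, which is 72% lower against 28.9% of all genes, with a median of only -0.32. Their summed level was 50699 to 54872 CPM with CshRNA and 37981 to 41920.0 CPM with MUC1shRNA. RPS6 was at 5837, 7431 and 5458 CPM with CshRNA and 3374, 3962 and 3796 CPM with MUC1shRNA, and had the largest loss in CPM of any called gene. RPL3 was at 1544, 1630.0 and 1558 CPM with CshRNA and 911, 984 and 939.7 CPM with MUC1shRNA. RPL13A fell most among those named, at a log2 fold change of -0.86 (edgeR adjusted p = 6.1e-07, SE 0.07), and the 1 member that rose was RPL23A, at a log2 fold change of 0.27 (edgeR adjusted p = 0.0062, SE 0.07). Many ribosomal protein genes have near-identical processed copies in the genome, so counts of single members are uncertain. The translation elongation factors EEF1A1 and EEF2 were also among the largest losses, from 3879 ± 179.7 to 2188 ± 38.9 CPM (SD, n = 3 each) and from 3232 ± 85.4 to 2329 ± 154 CPM (SD, n = 3 each). Of 48 tested MYC network and nucleolar genes that build ribosomes, 19 rose (39.6%) and 11 fell (22.9%), against 27.6% and 28.9% of all genes. MYC itself, at 519, 536 and 500.1 CPM with CshRNA and 373, 418 and 388 CPM with MUC1shRNA, fell with a log2 fold change of -0.398 (edgeR adjusted p = 1.6e-04, SE 0.06).

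**Figure D4:**
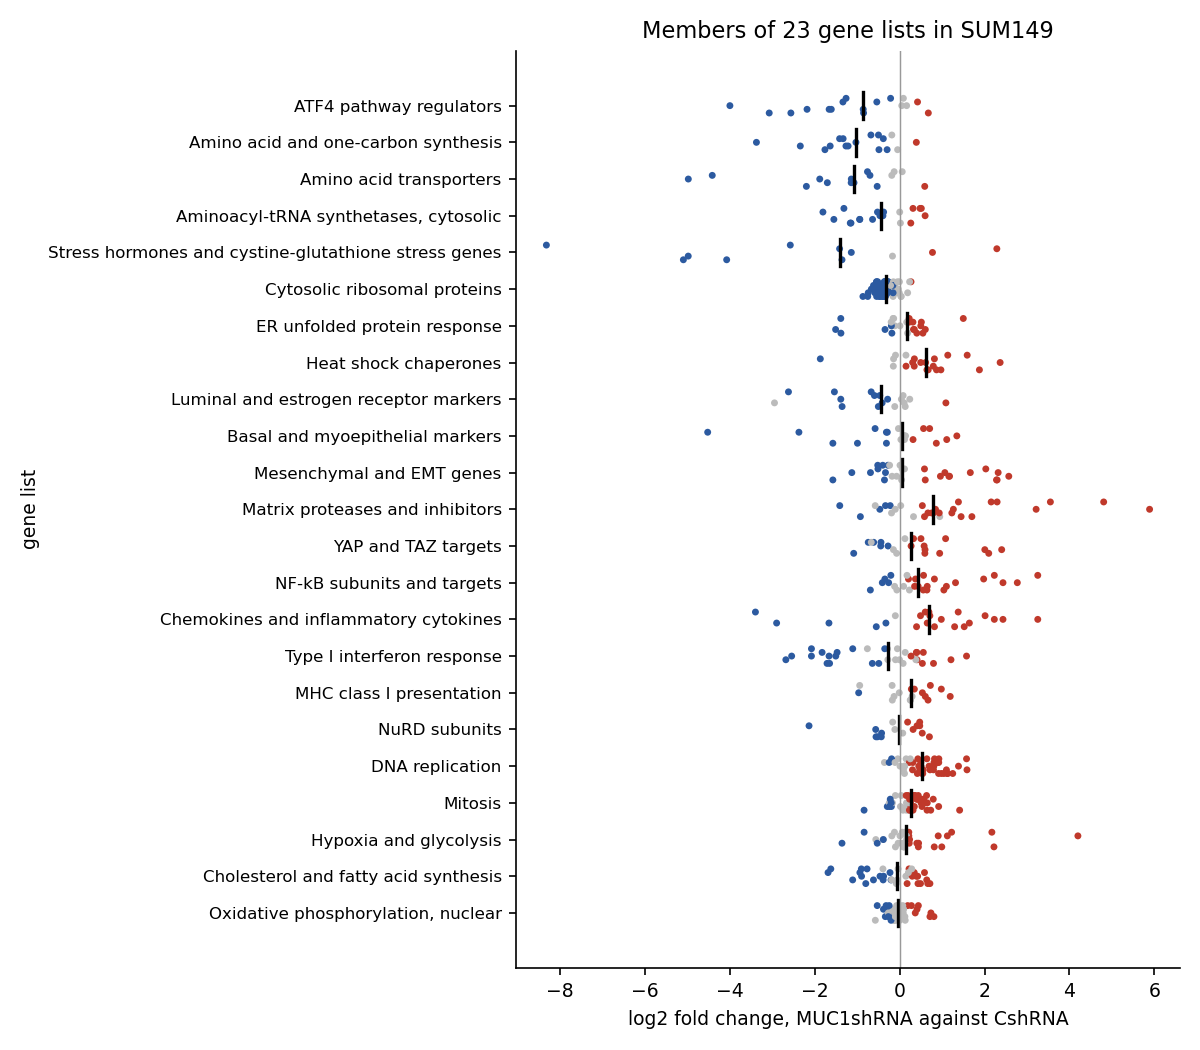
Log2 fold change of MUC1shRNA against CshRNA (horizontal) for each tested member of 23 gene lists (vertical) in SUM149; red marks members that rose, blue those that fell and grey the rest, and black lines are medians. The medians of the first 5 lists lie between -1.41 and -0.44, those of matrix proteases, chemokines and heat shock chaperones between 0.61 and 0.80, and the point furthest left is FGF21, whose fold is set by the fit.

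Genes of the basal lineage moved in both directions. TP63, a master factor of basal epithelium (GRCh38 chromosome 3, 189631416 to 189897279, plus strand), was at 62.2, 60.3 and 53.3 CPM with CshRNA and 2.57, 2.68 and 2.41 CPM with MUC1shRNA, a log2 fold change of -4.52 (edgeR adjusted p = 5.7e-11, SE 0.13). The basal keratin KRT5, at 308, 304 and 275 CPM with CshRNA and 149.6, 152 and 144 CPM with MUC1shRNA, fell with a log2 fold change of -0.99 (edgeR adjusted p = 6.0e-08, SE 0.07). Both genes were clearly lower in every silenced library, while KRT6B, a keratin of stressed epithelium, at 40.6, 38.6 and 35.98 CPM with CshRNA and 99.8, 105 and 88.4 CPM with MUC1shRNA, rose with a log2 fold change of 1.35 (edgeR adjusted p = 2.0e-08, SE 0.08). KRT17 rose with a log2 fold change of 0.56 (edgeR adjusted p = 1.5e-04, SE 0.09). Of all basal and myoepithelial markers 6 rose (30%) and 8 fell (40%) of 20 tested, against 27.6% and 28.9% of all genes. The surface protease MME was among those that fell (log2 fold change -2.37, edgeR adjusted p = 2.5e-05, SE 0.31), but its CshRNA 3 value was well above the other controls, at 127, 126 and 306 CPM with CshRNA and 44.96, 26.8 and 36.3 CPM with MUC1shRNA.

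Of the luminal and estrogen receptor markers 1 rose (5.56%) and 10 fell (55.6%) of 18 tested, against 27.6% and 28.9% of all genes. Their median was -0.44. The genes high in CshRNA 3 touch this list, since FOXA1 and ELF5 are on it, and without that library 4 rose and 10 fell. With CshRNA 1 and 2 against MUC1shRNA 2, 6 rose and 7 fell. FOXA1, a pioneer factor of luminal cells, was at 12.8, 13.5 and 51.2 CPM with CshRNA and 32.9, 27.1 and 31.2 CPM with MUC1shRNA. Its log2 fold change was 0.24 (edgeR adjusted p = 0.63, SE 0.40) with all libraries and 1.1999 without CshRNA 3, where it passed the test. GATA3, another luminal factor, fell with a log2 fold change of -0.47 (edgeR adjusted p = 0.0017, SE 0.10), and ERBB2, which encodes HER2, fell with a log2 fold change of -0.67 (edgeR adjusted p = 9.9e-06, SE 0.08). ESR1 rose from a low level of 2.502 ± 0.323 to 5.32 ± 0.175 CPM (SD, n = 3 each), and was the 1 member that rose with all libraries. PGR was at or near 0, with 34 counts in CshRNA 3 and 0 to 2 in the other libraries. KRT8 (log2 fold change 0.08, edgeR adjusted p = 0.31, SE 0.07) and KRT18 (log2 fold change 0.13, edgeR adjusted p = 0.084, SE 0.06) were not past the test.

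General epithelial genes were called at about the rate of all genes. Of the adhesion and junction genes 6 rose (25%) and 8 fell (33.3%) of 24 tested, against 27.6% and 28.9% of all genes, with 0 higher and 1 lower by more than 1.5-fold. This balance turned without CshRNA 3, where 9 rose and 7 fell, and with CshRNA 1 and 2 against MUC1shRNA 2, where 9 rose and 4 fell. CDH1, which encodes E-cadherin, was at 206, 195 and 247 CPM with CshRNA and 237, 224 and 229 CPM with MUC1shRNA, with arms that overlapped, and was not past the test (log2 fold change 0.09, edgeR adjusted p = 0.36, SE 0.08). TJP3, a scaffold of tight junctions, fell with a log2 fold change of -2.52 (edgeR adjusted p = 5.2e-06, SE 0.28). Of the squamous differentiation genes only 13 of 43 could be tested, of which 6 rose (46.2%) and 5 fell (38.5%). PPL, periplakin of the cornified envelope, was at 114, 108 and 98.1 CPM with CshRNA and 29.5, 32.3 and 26.9 CPM with MUC1shRNA, whereas SCEL, sciellin of the same structure, was at 0.581, 0.513 and 0.147 CPM with CshRNA and 6.81, 6.705 and 8.07 CPM with MUC1shRNA. The former fell with a log2 fold change of -1.85 (SE 0.09) and the latter rose with a log2 fold change of 4.08 (SE 0.33). In the list of desmosomes and hemidesmosomes 7 rose (36.8%) and 9 fell (47.4%) of 19 tested. DSG3, a desmosomal cadherin of basal layers, fell from 60.2 ± 7.05 to 19.1 ± 0.645 CPM (SD, n = 3 each), and PKP1, a plakophilin, fell with a log2 fold change of -1.001 (edgeR adjusted p = 8.0e-07, SE 0.09). In contrast LAMA3, a laminin chain of the basement membrane, rose from 271 ± 7.75 to 1008 ± 52.5 CPM (SD, n = 3 each).

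Among stemness genes 8 rose (50%) and 4 fell (25%) of 16 tested, against 27.6% and 28.9% of all genes. The surface markers CD24 and CD44 both rose, CD24 from 22.5 ± 1.28 to 95.4 ± 5.92 CPM (SD, n = 3 each) and CD44 from 205 ± 10.8 to 269 ± 7.66 CPM (SD, n = 3 each). CD24 was the larger change, at 2.08 (edgeR adjusted p = 3.0e-10, SE 0.08). ALDH1A3, an aldehyde dehydrogenase, rose with a log2 fold change of 1.01 (edgeR adjusted p = 1.3e-05, SE 0.12), and the transporter ABCG2 at a log2 fold change of 2.202 (edgeR adjusted p = 4.1e-06, SE 0.23). The pluripotency factor KLF4 was at 92.1, 88.7 and 81.6 CPM with CshRNA and 26.8, 31.3 and 28.5 CPM with MUC1shRNA and fell with a log2 fold change of -1.598 (edgeR adjusted p = 5.3e-09, SE 0.08). SOX9 was not past the test (log2 fold change -0.14, edgeR adjusted p = 0.26, SE 0.10), and SOX2 had at most 1 count in any library.

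Extracellular matrix genes and the proteases that cut matrix included the genes with the largest gains. FN1, which encodes fibronectin (GRCh38 chromosome 2, 215360440 to 215436172, minus strand), was at 897, 799 and 789 CPM with CshRNA and 3611, 3330.2 and 3206 CPM with MUC1shRNA, the largest gain in CPM of any called gene. TNC, tenascin C, was at 25.4, 22.99 and 24.3 CPM with CshRNA and 120.2, 121 and 122 CPM with MUC1shRNA. TGFBI, a matrix protein induced by TGF-beta, was at 55.9, 53.99 and 53.9 CPM with CshRNA and 277, 265 and 255 CPM with MUC1shRNA. The silenced libraries of these 3 genes were all above the highest control, with log2 fold changes of 2.03 (SE 0.07), 2.32 (SE 0.07) and 2.28 (SE 0.07). Of the whole mesenchymal list 12 rose (42.9%) and 9 fell (32.1%) of 28 tested, against 27.6% and 28.9% of all genes. By more than 1.5-fold, 10 were higher and 2 lower. The summed level of the list was 2735 to 3021 CPM with CshRNA and 6971 to 7657 CPM with MUC1shRNA. Among the factors that drive a mesenchymal state, SNAI2 rose with a log2 fold change of 1.07 (edgeR adjusted p = 4.0e-08, SE 0.07) and TWIST1 fell with a log2 fold change of -0.51 (edgeR adjusted p = 0.0025, SE 0.12), while ZEB1 rose from a very low level, 0.125 ± 0.02803 to 0.788 ± 0.0962 CPM (SD, n = 3 each). VIM, vimentin, was not past the test (log2 fold change 0.05, edgeR adjusted p = 0.7, SE 0.09), and CDH11, a mesenchymal cadherin, fell with a log2 fold change of -1.13 (edgeR adjusted p = 3.9e-07, SE 0.09). Markers of fibroblasts, a cell type rich in matrix RNA, were measured beside these genes. Of 5 tested, FAP, MFAP5 and COL6A3 rose and COL1A1 and DCN fell, the list's summed level was 272 to 332 CPM with CshRNA and 433 to 450.3 CPM with MUC1shRNA, and the defining collagen COL1A2 had 0 counts in 5 libraries and 1 in MUC1shRNA 3. MFAP5 had 1 count over the controls and 10, 11 and 18 in MUC1shRNA 1, 2 and 3. Of the members too low to test, those with the most counts were lower with MUC1shRNA. FBLN1 had 15, 12 and 20 counts with CshRNA and 2, 2 and 1 with MUC1shRNA, and PDGFRB 20, 12 and 34 and 2, 0 and 1. COL3A1 had 4, 3 and 6 counts with CshRNA and 5, 1 and 1 with MUC1shRNA. Only DPT leaned higher, on few counts, with 1, 1 and 0 against 3, 3 and 0. SPARC, an untested member of the mesenchymal list, had 15, 20 and 20 counts with CshRNA and 1, 0 and 1 with MUC1shRNA. The control arm was deeper. The falls of COL1A1 (log2 fold change -0.397, edgeR adjusted p = 0.012, SE 0.12) and DCN (log2 fold change -0.69, edgeR adjusted p = 0.015, SE 0.21) were lost under some alternatives. COL1A1 was not past the test without CshRNA 1 (-0.29), MUC1shRNA 1 (-0.35) or MUC1shRNA 3 (-0.37), and DCN without CshRNA 2 (-0.57) or MUC1shRNA 2 (-0.598), by DESeq2 (-0.67, adjusted p = 0.057) and in the fit to all 12 libraries (-0.698, edgeR adjusted p = 0.085). The part of such cells in the matrix genes was not tested.

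**Figure D5:**
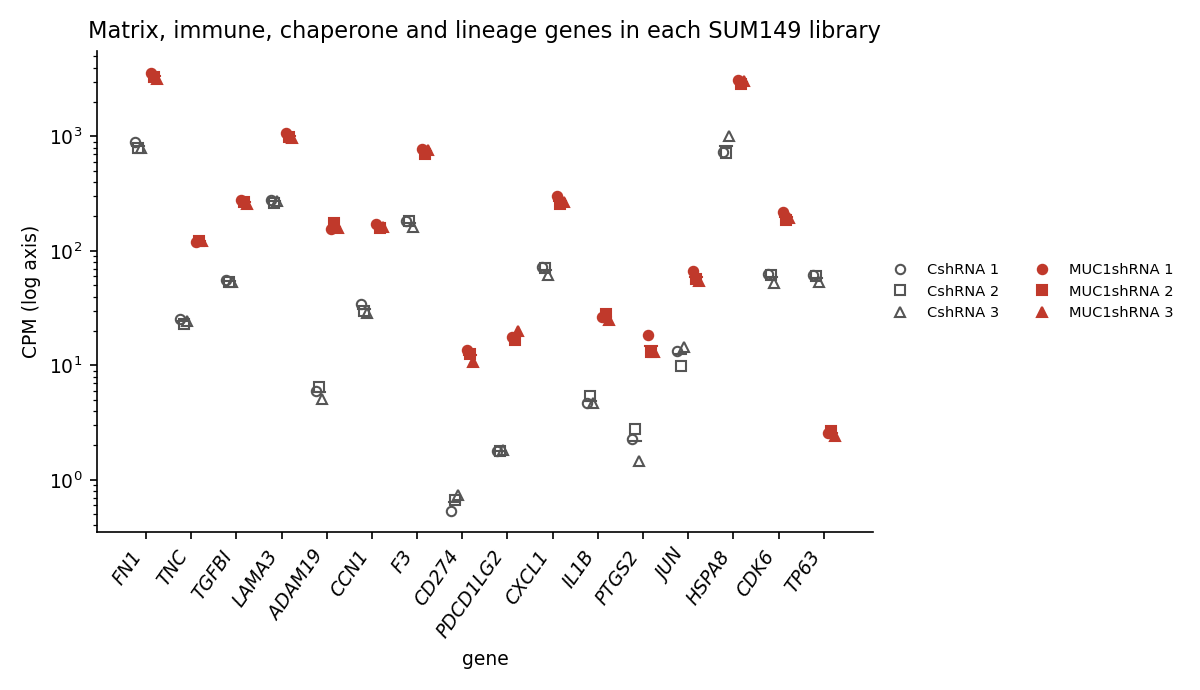
CPM (vertical, logarithmic axis) of 15 genes that rose and of TP63, which fell (horizontal), in each SUM149 library; open grey symbols are CshRNA, filled red symbols MUC1shRNA, and short lines are means of 3 libraries. FN1 lies at 789 to 897 CPM with CshRNA and at 3206 to 3611 CPM with MUC1shRNA, and the arms of all 16 genes are apart.

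Of matrix proteases and their inhibitors 18 rose and 5 fell of 29 tested, or 62.1% higher against 27.6% of all genes, with a median of 0.80. ADAM19, a membrane metalloprotease that sheds growth factors (GRCh38 chromosome 5, 157395534 to 157575775, minus strand), was at 5.98, 6.41 and 5.09 CPM with CshRNA and 155, 177 and 158 CPM with MUC1shRNA. ADAMTS6, a secreted protease of the same superfamily, was at 0.789, 0.872 and 1.08 CPM with CshRNA and 11.7, 10.7 and 9.85 CPM with MUC1shRNA. MMP3, stromelysin, stayed low but was at 0.374, 0.154 and 0.294 CPM with CshRNA and 2.697, 2.68 and 2.62 CPM with MUC1shRNA. In all 3 the lowest silenced library was far above the highest control, and they rose with log2 fold changes of 4.81 (SE 0.10), 3.55 (SE 0.20) and 3.21 (SE 0.33). SERPINE2, an inhibitor of serine proteases, fell with a log2 fold change of -0.92 (edgeR adjusted p = 1.5e-07, SE 0.07), and TIMP4, an inhibitor of metalloproteases, at a log2 fold change of -1.41 (edgeR adjusted p = 5.0e-07, SE 0.12).

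Of 15 integrins, the receptors for this matrix, 5 rose (33.3%) and 5 fell (33.3%), against 27.6% and 28.9% of all genes. ITGA2, a collagen receptor chain, rose from 84.6 ± 5.96 to 232 ± 9.37 CPM (SD, n = 3 each), and ITGB1, its partner, from 343 ± 5.42 to 634 ± 30.8 CPM (SD, n = 3 each). ITGB4, the hemidesmosomal chain, fell with a log2 fold change of -0.86 (edgeR adjusted p = 1.9e-05, SE 0.11). Of 32 genes of the TGF-beta pathway 10 rose (31.2%) and 9 fell (28.1%), near the shares of all genes. Its receptors TGFBR1 and TGFBR2 were higher, TGFBR2 at 211, 199 and 188 CPM with CshRNA and 559, 537 and 539 CPM with MUC1shRNA, a log2 fold change of 1.45 (edgeR adjusted p = 1.7e-09, SE 0.06). SMAD2, which carries the signal, was at 344, 349 and 307 CPM with CshRNA and 193, 193 and 194 CPM with MUC1shRNA, a log2 fold change of -0.79 (edgeR adjusted p = 5.1e-07, SE 0.07). Of 21 targets of YAP and TAZ 11 rose and 6 fell (52.4% higher). CCN1, a matricellular protein, was at 34.6, 29.9 and 28.6 CPM with CshRNA and 171, 159 and 163 CPM with MUC1shRNA, and F3, tissue factor, was at 182, 183 and 161 CPM with CshRNA and 777, 709 and 764 CPM with MUC1shRNA. They rose with log2 fold changes of 2.404 (SE 0.08) and 2.099 (SE 0.07) without overlap, while AJUBA, a LIM protein of the pathway, fell with a log2 fold change of -1.08 (edgeR adjusted p = 3.1e-07, SE 0.09).

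Both ligands of PD-1 and most of the chemokines and inflammatory cytokines tested rose, while interferon genes and the other checkpoint and natural killer cell ligands moved both ways. CD274, which encodes PD-L1 (GRCh38 chromosome 9, 5450503 to 5470566, plus strand), was at 0.5397, 0.667 and 0.734 CPM with CshRNA and 13.6, 12.7 and 10.8 CPM with MUC1shRNA. PDCD1LG2, PD-L2, its neighbour on the same chromosome, was at 1.79, 1.796 and 1.81 CPM with CshRNA and 17.9, 16.8 and 19.8 CPM with MUC1shRNA. Each silenced library was far above any control, and the log2 fold changes were 4.24 (SE 0.21) and 3.33 (SE 0.15). NT5E, the adenosine-producing ectoenzyme CD73, rose from 39.9 ± 2.88 to 161 ± 9.33 CPM (SD, n = 3 each). ULBP1, a stress ligand that activates natural killer cells, was at 17.2, 17.5 and 16.7 CPM with CshRNA and 0.514, 0.975 and 0.314 CPM with MUC1shRNA, a log2 fold change of -4.85 (edgeR adjusted p = 3.1e-09, SE 0.23), and MICB, another such ligand, rose with a log2 fold change of 1.87 (edgeR adjusted p = 4.3e-05, SE 0.26). Of 18 tested checkpoint and natural killer ligands, 8 rose (44.4%) and 5 fell (27.8%), against 27.6% and 28.9% of all genes.

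Of NF-kB subunits and targets 17 rose and 5 fell of 27 tested (63% higher against 27.6% of all genes). Their median was 0.44. TNFAIP3, the feedback inhibitor A20, was at 13.7, 12.9 and 10.4 CPM with CshRNA and 47.4, 52.7 and 46.4 CPM with MUC1shRNA. PTGS2, cyclooxygenase 2, was at 2.28, 2.77 and 1.47 CPM with CshRNA and 18.5, 13.2 and 13.1 CPM with MUC1shRNA, and IL1B, interleukin 1 beta, was at 4.69, 5.44 and 4.65 CPM with CshRNA and 26.7, 28.2 and 25.04 CPM with MUC1shRNA. These rose with log2 fold changes of 1.98 (SE 0.11), 2.77 (SE 0.22) and 2.43 (SE 0.12), with no overlap of the arms. Of the chemokines and inflammatory cytokines 16 rose and 5 fell of 22 tested (72.7% higher). CXCL1, which attracts neutrophils, was at 72.7, 70.7 and 61.1 CPM with CshRNA and 300.2, 258 and 268 CPM with MUC1shRNA, and rose with a log2 fold change of 2.01 (edgeR adjusted p = 8.3e-10, SE 0.08). IL15, a growth factor of natural killer and T cells, was at 9.96, 12.6 and 9.79 CPM with CshRNA and 1.28, 0.6095 and 1.15 CPM with MUC1shRNA, and fell with a log2 fold change of -3.39 (edgeR adjusted p = 8.3e-08, SE 0.24). TSLP, a cytokine of epithelial barriers, fell with a log2 fold change of -1.66 (edgeR adjusted p = 3.3e-05, SE 0.22). Beside these genes the leukocyte marker PTPRC had at most 7 counts in a library, and of the 5 tested leukocyte markers of 17 listed 0 rose and 1 fell, CD14, with a log2 fold change of -0.81 (edgeR adjusted p = 0.0032, SE 0.20). The summed level of those markers was 17.5 to 21.7 CPM with CshRNA and 16.1 to 21.4 CPM with MUC1shRNA, and their part in the inflammatory genes was not tested.

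Of 32 tested type I interferon response genes 9 rose (28.1%) and 14 fell (43.8%), against 27.6% and 28.9% of all genes. By more than 1.5-fold, 3 were higher and 11 lower. IFIT1, an antiviral RNA-binding protein, was at 5.85, 5.18 and 5.58 CPM with CshRNA and 0.771, 0.731 and 1.05 CPM with MUC1shRNA. IFI44 was at 6.39, 6.52 and 5.43 CPM with CshRNA and 1.28, 1.34 and 1.68 CPM with MUC1shRNA, and IFIT2, of the family of IFIT1, at 14.4, 12.2 and 11.6 CPM with CshRNA and 1.16, 2.44 and 2.83 CPM with MUC1shRNA. They fell with log2 fold changes of -2.68 (SE 0.24), -2.08 (SE 0.21) and -2.54 (SE 0.23), every silenced library lying below every control. STING1, the adaptor of cytosolic DNA sensing, fell with a log2 fold change of -1.65 (edgeR adjusted p = 5.3e-07, SE 0.14). SAMD9, an antiviral factor, rose with a log2 fold change of 1.58 (edgeR adjusted p = 9.5e-07, SE 0.14), and PARP9 at a log2 fold change of 0.798 (edgeR adjusted p = 4.6e-06, SE 0.09). Of the genes of antigen presentation by MHC class I 8 rose (47.1%) and 1 fell (5.88%) of 17 tested. B2M, the light chain of the complex, was at 30.97, 36.3 and 37.4 CPM with CshRNA and 61.7, 50.3 and 54.3 CPM with MUC1shRNA, and rose with a log2 fold change of 0.67 (edgeR adjusted p = 6.0e-05, SE 0.10). NLRC5, the transactivator of these genes, was the 1 member that fell (log2 fold change -0.96, edgeR adjusted p = 1.5e-04, SE 0.16).

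The chromatin complex named in the title of the series moved in both directions. Of 16 NuRD subunits 7 rose (43.8%) and 6 fell (37.5%), against 27.6% and 28.9% of all genes. The median was -0.02, with 0 higher and 1 lower by more than 1.5-fold. HDAC1, a histone deacetylase, was at 185, 181 and 189.9 CPM with CshRNA and 264, 266 and 275 CPM with MUC1shRNA, a log2 fold change of 0.53 (edgeR adjusted p = 6.6e-06, SE 0.06). CDK2AP1, a small subunit, rose with a log2 fold change of 0.702 (edgeR adjusted p = 1.5e-05, SE 0.09), and MBD2, a reader of methylated DNA, at a log2 fold change of 0.47 (edgeR adjusted p = 3.8e-05, SE 0.06). MTA1, a scaffold subunit, was at 133, 134 and 129 CPM with CshRNA and 81.2, 100.5 and 87.7 CPM with MUC1shRNA, a log2 fold change of -0.56 (edgeR adjusted p = 4.5e-05, SE 0.08). MTA3, its paralog, fell with a log2 fold change of -0.56 (edgeR adjusted p = 2.9e-05, SE 0.07). CHD5, a remodelling ATPase of low level here, was the member lower by more than 1.5-fold, from 1.74 ± 0.368 to 0.396 ± 0.0871 CPM (SD, n = 3 each). CHD4, the main ATPase, rose with a log2 fold change of 0.32 (edgeR adjusted p = 0.0012, SE 0.07), although 53.5% of its exon bases lie in an unnamed gene on the same strand. MBD3 was not past the test (log2 fold change -0.16, edgeR adjusted p = 0.063, SE 0.07).

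Of 31 Polycomb subunits and DNA methyltransferases 8 rose (25.8%) and 11 fell (35.5%), against 27.6% and 28.9% of all genes. DNMT3A and DNMT3B, the de novo methyltransferases, both fell, DNMT3A from 27.7 ± 1.85 to 11.8 ± 1.415 CPM (SD, n = 3 each) and DNMT3B from 9.95 ± 0.4104 to 4.34 ± 0.509 CPM (SD, n = 3 each). UHRF1, which brings the maintenance enzyme to replicated DNA, rose from 66.9 ± 3.68 to 109 ± 0.675 CPM (SD, n = 3 each). EZH2, the Polycomb methyltransferase, was not past the test (log2 fold change -0.08, edgeR adjusted p = 0.33, SE 0.07). Of 24 subunits of the SWI/SNF remodeller 7 rose (29.2%) and 5 fell (20.8%), near or below the shares of all genes. SMARCC1 rose with 0.47 (edgeR adjusted p = 2.4e-04, SE 0.08) and ARID2 fell with -0.69 (edgeR adjusted p = 2.0e-06, SE 0.07) on the log2 scale.

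Growth factor signalling was measured through receptors, ligands and feedback genes. EGFR was at 578, 534 and 515 CPM with CshRNA and 920.3, 848 and 889 CPM with MUC1shRNA, a log2 fold change of 0.71 (edgeR adjusted p = 1.0e-06, SE 0.06). It was the 1 riser of its list, where 1 rose (8.33%) and 7 fell (58.3%) of 12 tested, against 27.6% and 28.9% of all genes. BTC, the ligand betacellulin, fell from 13.5 ± 0.819 to 5.31 ± 1.238 CPM (SD, n = 3 each), HBEGF fell with a log2 fold change of -0.95 (edgeR adjusted p = 1.0e-05, SE 0.11), and ERRFI1, an inhibitor of the receptor, fell from 497 ± 34.4 to 218 ± 9.69 CPM (SD, n = 3 each). Of 21 feedback genes of ERK 6 rose (28.6%) and 9 fell (42.9%). SPRY2 and DUSP6, inhibitors of the pathway, fell with log2 fold changes of -1.57 (SE 0.09) and -0.900 (SE 0.07), while DUSP5, a nuclear phosphatase of ERK, was at 15.7, 15.96 and 13.2 CPM with CshRNA and 52.8, 54.1 and 56.3 CPM with MUC1shRNA, a log2 fold change of 1.86 (edgeR adjusted p = 3.8e-09, SE 0.09). DUSP6 overlaps an unnamed gene on the opposite strand over 40.5% of its exon bases. Of the immediate early factors 10 rose (40%) and 8 fell (32%) of 25. JUN, a subunit of AP-1, was at 13.5, 9.802 and 14.6 CPM with CshRNA and 66.7, 56.7 and 55.1 CPM with MUC1shRNA, and FOSL1, its partner, at 211, 213 and 184 CPM with CshRNA and 357, 451 and 379 CPM with MUC1shRNA. They rose with log2 fold changes of 2.23 (SE 0.13) and 0.96 (SE 0.09), while NR4A2, an orphan receptor, fell with a log2 fold change of -1.998 (edgeR adjusted p = 1.0e-07, SE 0.14). The Notch list had 3 genes that rose (18.8%) and 5 that fell (31.2%) of 16. Its ligand JAG1 was higher, with a log2 fold change of 0.59 (edgeR adjusted p = 1.1e-05, SE 0.07). The receptor NOTCH3 was lower, with a log2 fold change of -0.79 (edgeR adjusted p = 7.7e-04, SE 0.16).

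Most genes of DNA replication rose. Of this list 34 rose and 2 fell of 46 tested (73.9% higher against 27.6% of all genes), with a median of 0.52. FEN1, which processes Okazaki fragments, was at 46.7, 44.9 and 57.2 CPM with CshRNA and 141, 152 and 150.4 CPM with MUC1shRNA. ORC1, of the origin recognition complex, was at 41.8, 41.00 and 42.6 CPM with CshRNA and 102, 115 and 111 CPM with MUC1shRNA, and GINS1, of the replicative helicase, was at 62.2, 69.9 and 69.6 CPM with CshRNA and 166, 154 and 159 CPM with MUC1shRNA. The silenced libraries were all above the controls, at log2 fold changes of 1.58 (SE 0.09), 1.39 (SE 0.07) and 1.25 (SE 0.07). POLD2 (log2 fold change -0.25, edgeR adjusted p = 0.017, SE 0.08) and RFC1 (log2 fold change -0.19, edgeR adjusted p = 0.024, SE 0.06) were the 2 members that fell. POLD2 lost its call without MUC1shRNA 1 (-0.20) or MUC1shRNA 3 (-0.19), and was at -0.02 (edgeR adjusted p = 0.83) with CshRNA 1 and 2 against MUC1shRNA 2. RFC1 lost its call after thinning (-0.17) and without CshRNA 1 or 2, MUC1shRNA 2 or 3 (-0.19 to -0.15). Of the mitosis genes 30 rose (63.8%) and 6 fell (12.8%) of 47 tested, against 27.6% and 28.9% of all genes. ANLN, a scaffold of the cleavage furrow, rose with a log2 fold change of 1.41 (edgeR adjusted p = 4.8e-09, SE 0.07). MAD2L1, a checkpoint protein, fell with a log2 fold change of -0.84 (edgeR adjusted p = 8.6e-06, SE 0.10). Of 35 genes of homologous recombination and Fanconi anemia 16 rose (45.7%) and 5 fell (14.3%). BRCA1 rose with a log2 fold change of 0.33 (edgeR adjusted p = 0.0065, SE 0.09).

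Of 15 regulators of the start of the cell cycle 9 rose (60%) and 3 fell (20%), against 27.6% and 28.9% of all genes. CDK6 was at 62.4, 61.2 and 52.7 CPM with CshRNA and 218, 185 and 194 CPM with MUC1shRNA, and CCND1, cyclin D1, was at 207, 206 and 217 CPM with CshRNA and 519.6, 512 and 507 CPM with MUC1shRNA. They rose with log2 fold changes of 1.76 (SE 0.08) and 1.29 (SE 0.06), and CCNE2, cyclin E2, at a log2 fold change of 1.59 (SE 0.13). CDKN1A, the inhibitor p21, rose with a log2 fold change of 0.86 (edgeR adjusted p = 2.0e-06, SE 0.09), and PLK2, a kinase, rose with a log2 fold change of 2.34 (edgeR adjusted p = 1.7e-09, SE 0.10). In the BCL2 family, 6 rose (40%) and 6 fell (40%) of 15. BBC3, the death-promoting member PUMA, was at 20.8, 21.6 and 18.8 CPM with CshRNA and 5.27, 4.39 and 5.13 CPM with MUC1shRNA, a log2 fold change of -2.05 (edgeR adjusted p = 2.7e-08, SE 0.13), and HRK fell with a log2 fold change of -1.67 (edgeR adjusted p = 1.6e-07, SE 0.13). BMF, of the same class, rose with a log2 fold change of 1.99 (edgeR adjusted p = 4.8e-06, SE 0.22), and BAX at a log2 fold change of 0.82 (edgeR adjusted p = 9.2e-07, SE 0.07).

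Other metabolic genes were measured in 4 lists. Of the hypoxia and glycolysis genes 15 rose (40.5%) and 4 fell (10.8%) of 37 tested, against 27.6% and 28.9% of all genes. ANGPTL4, an inhibitor of lipoprotein lipase, was at 1.62, 1.796 and 2.11 CPM with CshRNA and 31.9, 37.8 and 31.7 CPM with MUC1shRNA, a log2 fold change of 4.198 (edgeR adjusted p = 1.1e-10, SE 0.14). SLC2A1, the main glucose carrier, was at 106, 105 and 102 CPM with CshRNA and 229.9, 227 and 226 CPM with MUC1shRNA, and PFKFB3, an activator of glycolysis, rose with a log2 fold change of 1.22 (edgeR adjusted p = 5.5e-08, SE 0.08). VEGFA, the vascular growth factor, fell with a log2 fold change of -1.36 (edgeR adjusted p = 4.2e-08, SE 0.09). Of 35 genes of cholesterol and fatty acid synthesis 13 rose (37.1%) and 14 fell (40%). SCD, the stearoyl-CoA desaturase, was at 3008, 2878 and 2631 CPM with CshRNA and 1563, 1537 and 1462 CPM with MUC1shRNA, and ACSS2, which makes acetyl-CoA from acetate, at 261, 259.7 and 264 CPM with CshRNA and 80.4, 86.6 and 77.2 CPM with MUC1shRNA. These fell with log2 fold changes of -0.901 (SE 0.06) and -1.69 (SE 0.07), and NSDHL, of sterol synthesis, rose with a log2 fold change of 0.71 (edgeR adjusted p = 2.5e-06, SE 0.07). Of 50 nuclear genes of oxidative phosphorylation 8 rose (16%) and 9 fell (18%), with a median of -0.04. Without CshRNA 3, 10 rose and 6 fell, and the same counts were found with CshRNA 1 and 2 against MUC1shRNA 2. Of 13 mitochondrial transcripts 0 rose and 3 fell (23.1%). Without CshRNA 3, 0 rose and 7 fell, without MUC1shRNA 1 only 1 was called, and with CshRNA 1 and 2 against MUC1shRNA 2, 3 rose and 3 fell.

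Large rises outside the lists included C15orf48 and LINC00973. C15orf48, which encodes a small mitochondrial protein, was at 0.374, 0.154 and 0.343 CPM with CshRNA and 7.45, 5.49 and 6.71 CPM with MUC1shRNA, and shares 32.5% of its exon bases with SLC30A4-AS1 on the same strand. LINC00973, a long noncoding RNA, was at 1.04, 1.08 and 0.685 CPM with CshRNA and 17.2, 14.9 and 17.9 CPM with MUC1shRNA. CCDC80, a matrix protein, was at 3.74, 3.59 and 3.77 CPM with CshRNA and 37.3, 37.3 and 39.1 CPM with MUC1shRNA, and AKAP12, a scaffold of protein kinase A, at 41.5, 39.9 and 33.5 CPM with CshRNA and 339, 324 and 295 CPM with MUC1shRNA. Arms without overlap were a condition for naming these 4 genes. Their log2 fold changes were 4.43 (SE 0.30), 4.14 (SE 0.20), 3.35 (SE 0.10) and 3.06 (SE 0.09). PLD5, of the phospholipase D family, HEPHL1, a ferroxidase, SCG5, a secretory granule chaperone, MYH16, a myosin pseudogene, and TMEM156 rose with log2 fold changes of 4.12 (SE 0.23), 3.95 (SE 0.21), 3.76 (SE 0.27), 3.24 (SE 0.25) and 3.13 (SE 0.18). Among the largest falls outside the lists, STAC2, an adaptor with an SH3 domain, was at 119.7, 112 and 96.1 CPM with CshRNA and 6.94, 10.2 and 7.54 CPM with MUC1shRNA. COL9A3, a chain of collagen IX, was at 32.01, 31.1 and 27.8 CPM with CshRNA and 1.41, 3.17 and 1.47 CPM with MUC1shRNA, and ECM2, an extracellular matrix protein, at 29.3, 32.1 and 28.2 CPM with CshRNA and 2.44, 1.95 and 2.51 CPM with MUC1shRNA. KIF21B, a kinesin, and TPRG1, a neighbour of TP63, fell with log2 fold changes of -3.58 (SE 0.18) and -3.86 (SE 0.32), and STAC2, COL9A3 and ECM2 at log2 fold changes of -3.73 (SE 0.13), -3.91 (SE 0.20) and -3.69 (SE 0.14). TPRG1 was at 11.3, 14.7 and 9.99 CPM with CshRNA and 0.385, 0.488 and 1.47 CPM with MUC1shRNA, and its log2 fold change was -4.74 without MUC1shRNA 3.

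Some genes had counts in one arm and 0 in the other, and these were singled out after their values were seen. RTL1, an imprinted gene of retrotransposon origin, had 0 counts in each control and 112, 135 and 119 counts in MUC1shRNA 1, 2 and 3, so its level was at least 306-fold higher with MUC1shRNA, taking 3 counts over the arm as the floor. SCARA3, TFPI and PLPPR1 had 68, 65 and 64 counts over the controls and 0 over the silenced libraries, at least 9.04-fold, 8.64-fold and 8.51-fold lower. BGN, biglycan of the matrix (GRCh38 chromosome X, 153494939 to 153509554, plus strand), was at 25.5, 20.9 and 23.01 CPM with CshRNA and 0.128, 0.366 and 0.314 CPM with MUC1shRNA, a log2 fold change of -6.36 (edgeR adjusted p = 2.3e-10, SE 0.23). MARCHF4, a ubiquitin ligase, was at 0, 0.103 and 0.04896 CPM with CshRNA and 6.68, 8.66 and 6.29 CPM with MUC1shRNA. Neither gene had an overlap between the arms.

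Highly expressed genes with the largest gains in CPM included ACTB and ACTG1, the cytoplasmic actins, THBS1, thrombospondin, and PKM, pyruvate kinase. ACTB rose from 2839.7 ± 40.5 to 5116 ± 245 CPM (SD, n = 3 each) and THBS1 from 1138 ± 55.3 to 2570.2 ± 148 CPM (SD, n = 3 each). Their log2 fold changes were 0.85 (SE 0.06) and 1.18 (SE 0.06), a modest fold beside the gain in CPM. Among the largest losses beside those named above, MT-RNR2, a mitochondrial ribosomal RNA, fell from 12150.2 ± 1062 to 9793 ± 760.1 CPM (SD, n = 3 each), and PTP4A1, a phosphatase, fell from 1942 ± 163 to 1018 ± 119 CPM (SD, n = 3 each), but 78.96% of the exon bases of PTP4A1 are shared with an unnamed gene on the same strand.

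Among long noncoding RNA genes, here those annotated as lincRNA or antisense, falls outnumbered rises. Other types of long noncoding RNA were not counted. Of 1128 tested, 126 rose and 379 fell, that is 11.2% higher against 27.6% of all genes, and 33.6% lower against 28.9%. With all genes that could be tested, the share that fell was nearer to that of all genes than the share that rose. It lay below that of all genes in 5 of 16 alternatives, among them DESeq2 (23.2% against 24.7%). With a minimum of 5 CPM in 3 libraries it was well above, at 48.8% of 256 against 31.5%. The median there was -0.32, and 0.0064 for protein-coding genes. The share that rose lay below that of all genes in all 16 (8.6% against 27.1% by DESeq2). Their median log2 fold change was -0.36 while that of protein-coding genes was -0.0042. With all libraries thinned to the depth of the smallest, 101 rose and 264 fell of 803, with a median of -0.31. Level moved with this result. Among the 20% of genes with the lowest mean CPM (0.401 to 3.30 CPM) the median log2 fold change was -0.31, with 11.7% higher and 26.7% lower, and among the 20% with the highest (from 88.7 CPM) it was 0.10, with 43.3% higher and 24.4% lower. The part of level in the balance among long noncoding RNAs was not tested. By chromosome the median ran from -0.09 to 0.03, and over 1309 windows of 50 neighbouring genes from -0.42 to 0.31.

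The response of SUM149 was compared with that of BT-549 by an interaction over all 12 libraries, in which each line has its own controls. Of 15649 genes tested, 6194 (39.6%) had a different response, 3148 more positive and 3046 more negative in SUM149. MUC1 itself fell in both lines, and the difference of -1.08 (SE 0.43, edgeR adjusted p = 0.059) was not past the test. In the 5 ATF4 lists, 13 of 18 regulators, 14 of 18 enzymes of amino acid and one-carbon synthesis, 10 of 15 transporters, 13 of 20 tRNA synthetases and 9 of 11 stress genes were more negative in SUM149, and 3, 1, 0, 5 and 1 were more positive. Their medians in BT-549 were 0.15, -0.06, 0.09, 0.01 and 0.32. NUPR1 is an example, with a log2 fold change of 1.03 in BT-549 and a difference of -5.04 (SE 0.15, edgeR adjusted p = 1.5e-11). DNA replication genes were more positive in SUM149 in 32 of 46 and more negative in 2, and heat shock chaperones in 15 and 0 of 21. For the genes with the largest rises, the differences were 4.22 (SE 0.14, edgeR adjusted p = 5.0e-11) for ADAM19, 3.94 (SE 0.33, edgeR adjusted p = 3.7e-07) for CD274 and 4.62 (SE 0.14, edgeR adjusted p = 1.5e-11) for ANGPTL4. Such genes were picked for their change in SUM149, which enters the difference, so a difference was favoured by the choice. PLD5 and HEPHL1 had fewer than 10 counts in BT-549, so no difference between the lines is given for them, nor for SCEL for the same reason.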

How the data were processed

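The deposited table holds raw read counts per gene, 1 column a library, made by the authors from total RNA that was extracted with Trizol and prepared with a TruSeq Stranded mRNA kit, per the labels' protocols. GRCh38.p7 is the build, and STAR 2.7.0, CASAVA 1.8.2 and DESeq2 1.24.0 the tools, per the submitters' processing notes, which give no roles. Counting tool and strand setting were not given in sources used here. The 6 SUM149 libraries (7931614 to 24140623 counts) were fitted with edgeR 4.0.16 in R 4.3.3: default expression filter, TMM scaling, quasi-likelihood test, Benjamini-Hochberg adjustment over all tested genes, and glmTreat against 1.5-fold. Limma 3.58.1 and DESeq2 1.42.0 gave alternatives, and the difference between lines came from an interaction over 12 libraries. Scripts were tested on simulated data. The members and gene lists were chosen with earlier results of these data known.

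Named genes were MUC1; the 15 largest rises and 15 largest falls among called genes without overlap of the arms, with a sum of 10 counts or more per arm and a mean of 5 CPM or more in one of them; the 8 largest gains and 8 largest losses in mean CPM; the 3 members of each list with the smallest adjusted p in each direction; and a written list of genes. Not all are printed, and a few genes are not reported here. Gene positions and exon overlaps came from the reference annotation of GRCh38, and promoter windows from RefSeq (GRCh38.p14). Lists share some members. Replicate numbers did not pair the arms. Where counts were 0 in an arm, folds were computed against 3 counts over that arm.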

Additional observations from a re-analysis of the deposited data

Results flagged for a closer look

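The response to MUC1 silencing differed between SUM149 and BT-549 for 11 of the genes with the largest changes in SUM149, by edgeR's test of the difference itself. These genes were chosen by their changes in SUM149, and the same values enter the difference. A difference was thus favoured by the choice and is no independent support. Over all genes, 6194 of 15649 (39.6%) differed. The values are differences of log2 fold changes, SUM149 minus BT-549. They were positive for LINC00973 (5.07, SE 0.81), ANGPTL4 (4.62, SE 0.14), ADAM19 (4.22, SE 0.14), C15orf48 (4.06, SE 0.34) and CD274 (3.94, SE 0.33). They were negative for SLC7A11 (-5.47, SE 0.22), CHAC1 (-5.36, SE 0.28), ADM2 (-5.27, SE 0.22), TP63 (-4.48, SE 0.27), SLC43A1 (-4.32, SE 0.27) and ULBP1 (-3.90, SE 0.51). LINC00973 had the highest adjusted p of these 11 genes (edgeR adjusted p = 1.6e-04). In BT-549, 3 of these genes were below 1 CPM: LINC00973 was at a mean of 0.228 CPM with CshRNA and 0.117 CPM with MUC1shRNA, ULBP1 at 0.696 and 0.352 CPM, and TP63 at 0.766 and 0.744 CPM. Their fold changes in that line rest on few counts. Changes within BT-549 were taken from the fit to all 12 libraries. There the log2 fold changes of ADAM19 (0.57), SLC7A11 (0.48) and CHAC1 (0.37) were positive and past the test. CHAC1 passed only narrowly (edgeR adjusted p = 0.048). The change of ANGPTL4 (-0.43) was negative and past the test.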

How the results depend on the processing

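The count of changed genes ran from 6866 (without MUC1shRNA 3) to 8464 (no filter on low counts, 29523 genes tested), with 7354 by DESeq2, 7945 by limma-voom and 7372 after thinning to the smallest library. Genes changed by more than 1.5-fold numbered 1528 to 2424, and leaving out 1 library gave 1753 to 2214. Upper-quartile scaling and no filter lowered the share of higher calls from 48.9% to 42.3% and 42.5%. Every called named gene that could be tested kept its direction in each alternative, and 61 single values lost their call. After thinning, LINC00973 moved to 4.83 and MMP3 to 2.62 on the log2 scale.

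The replicate number as a block gave 7934 changed genes. Deviations of same-numbered libraries correlated at -0.07, 0.08 and 0.10, so the numbers were not taken as pairs. With the block, 6 mitochondrial transcripts and 2 leukocyte markers were called. In place of 3, called mitochondrial transcripts numbered 5 with RLE scaling, 5 after thinning, 6 with CshRNA 1 and 2 against MUC1shRNA 2 (3 higher and 3 lower), and 1 to 7 when 1 library was left out. In place of 1, leukocyte markers numbered 2 without a filter, 2 by limma-voom, 2 after thinning, 2 with CshRNA 1 and 2 against MUC1shRNA 2, 1 to 2 when 1 library was left out, and 0 with a minimum of 5 CPM. Squamous genes numbered 7 with that minimum and 7 with CshRNA 1 and 2 against MUC1shRNA 2, in place of 11. Fibroblast markers numbered 3 with that minimum, in place of 5. The larger of the counts of rises and falls changed sides in 5 of 46 lists without CshRNA 3 (adhesion and junction, squamous, SWI/SNF, cholesterol and fatty acid synthesis, nuclear oxidative phosphorylation). It did so in 7 with CshRNA 1 and 2 against MUC1shRNA 2 (the same without SWI/SNF, and Notch, NuRD and fibroblast markers). Fewer genes are tested with the minimum of 5 CPM; otherwise the cause was not tested. The comparison with MUC1shRNA 2 alone, added after the data were seen, assumes that this library varies like the controls. The lower depth of the silenced arm limits genes of few counts, and 1 hairpin in 1 line limits what can be told apart.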
